A study of Mus musculus with 10 samples.

Results

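The genes described here are the mouse major histocompatibility complex (MHC) and the antigen presentation genes that work with it. They were chosen by name, as all genes whose probe set carries 1 symbol that starts with H2- or is B2m, Tap1, Tap2, Tapbp, Psmb8, Psmb9, Psmb10, Nlrc5, Ciita, Erap1, Cd74, Rfx5, Calr, Canx or Pdia3, with the brightest probe set taken for each gene. This rule found 48 of 22180 genes measured on Affymetrix Mouse Gene 2.0 ST arrays: 22 class I heavy chain genes, 12 genes of class I peptide supply and loading including the regulator Nlrc5, 13 class II genes including Ciita and Rfx5, and 1 gene of neither class. Cd74 and H2-D1 were measured only by probe sets that carry several symbols, and these are given apart. No filter on low values was applied, so that all 48 genes entered the test.

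Total RNA came from 5 Ezh2-/- and 5 Ezh2+/+ whole mammary tumours of female Tet-ON PyVmT mice on an FVB background, frozen at tumour burden endpoint, with 1 array per tumour. Mice of both genotypes received doxycycline in the water, and both carry the reverse tetracycline transactivator under the MMTV promoter together with a Tet operator transgene that makes the polyomavirus middle T oncogene and Cre recombinase from 1 transcript. Ezh2-/- mice carry in addition conditional alleles of Ezh2, the methyltransferase of the Polycomb complex PRC2, which Cre removes in the mammary epithelium. Ezh2 is therefore kept in the fibroblasts, vessels and immune cells of the same tumours. The paper reports a later tumour onset in Ezh2-deficient mice. Age and time on doxycycline may therefore differ between the genotypes, and cannot be told apart from genotype here. The sources used here do not say whether each tumour came from a different mouse, so the p-values measure the spread between these tumours.

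Class I molecules are made by nearly all nucleated cells and show peptides from inside the cell to CD8 T cells and natural killer cells. A polymorphic heavy chain pairs with B2m, the immunoproteasome subunits Psmb8, Psmb9 and Psmb10 cut the peptides, Tap1 and Tap2 carry them into the endoplasmic reticulum, Erap1 trims them, and Tapbp, Calr, Canx and Pdia3 hold the empty molecule while it is loaded. Class II molecules are made mainly by dendritic cells, macrophages and B cells and show peptides of ingested proteins to CD4 T cells, with Cd74 guarding the groove, H2-DM exchanging the peptide and H2-O holding H2-DM back. Nlrc5 is the activator of class I genes and Ciita that of class II genes, and both work through the promoter factors RFX, CREB and NF-Y. FVB mice carry the q haplotype of the H2 locus, in which the E alpha chain is not made, and because probes were designed on a reference genome while H2 genes differ between strains, levels are compared only between genotypes and never between genes.

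Values are log2 signals as deposited, SE is the standard error of a log2 fold change (Ezh2-/- less Ezh2+/+), and lists of 5 values run from replicate 1 to replicate 5. The median over all probe sets was 4.35 to 4.46 on the Ezh2-/- arrays and 4.54 to 4.67 on the Ezh2+/+ arrays, with no overlap. Ezh2 itself lay between 6.36 and 6.50 in Ezh2-/- tumours and between 6.98 and 7.69 in Ezh2+/+ tumours. Epithelial markers such as Epcam and Krt8 did not pass the test in either direction (0 of 12 by limma with Benjamini-Hochberg adjustment, 3 at an unadjusted p under 0.05), and their mean level was 8.49 to 8.91 and 8.47 to 8.85. Skeletal muscle markers had a mean level of 8.88 and 7.67 in Ezh2-/- tumours 1 and 5 and of 4.37 to 5.28 in the other tumours. The number of arrays limits the precision, and the standard errors of the 48 genes lay between 0.096 and 0.27 on the log2 scale.

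Most MHC and antigen presentation genes did not pass the test between genotypes. Of the 48 genes, 2 rose and 2 fell in Ezh2-/- tumours when limma p-values were held to 0.05 after adjustment over all genes, which is 8.33% of them, where 14.8% of all genes were called (7.29% higher and 7.56% lower). H2-Ke6 and Tapbp rose, and H2-M10.6 and H2-K2 fell. The methods' own test, an equal-variance test for each gene, called 1 of the 48 after adjustment, H2-Ke6, and 9.08% of all genes. Over the 48 genes the log2 fold change had a median of -0.02, against 0.026 over all genes, and 11 of the 48 had an unadjusted p under 0.05, against 33.5% of all genes. Of all called genes 49.1% were higher in Ezh2-/- tumours, and this share was 60.3% after quantile normalization, 72.5% without the 40% dimmest genes and 84.9% after every array was centred on its median. With that centring the median over all genes became 0.199, and under it 11 of the 48 genes were called higher and 1 lower, where 27.7% of all genes were called. Sorted by role, the class I heavy chains had mostly negative and the class II genes mostly positive differences.

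**Figure D1:**
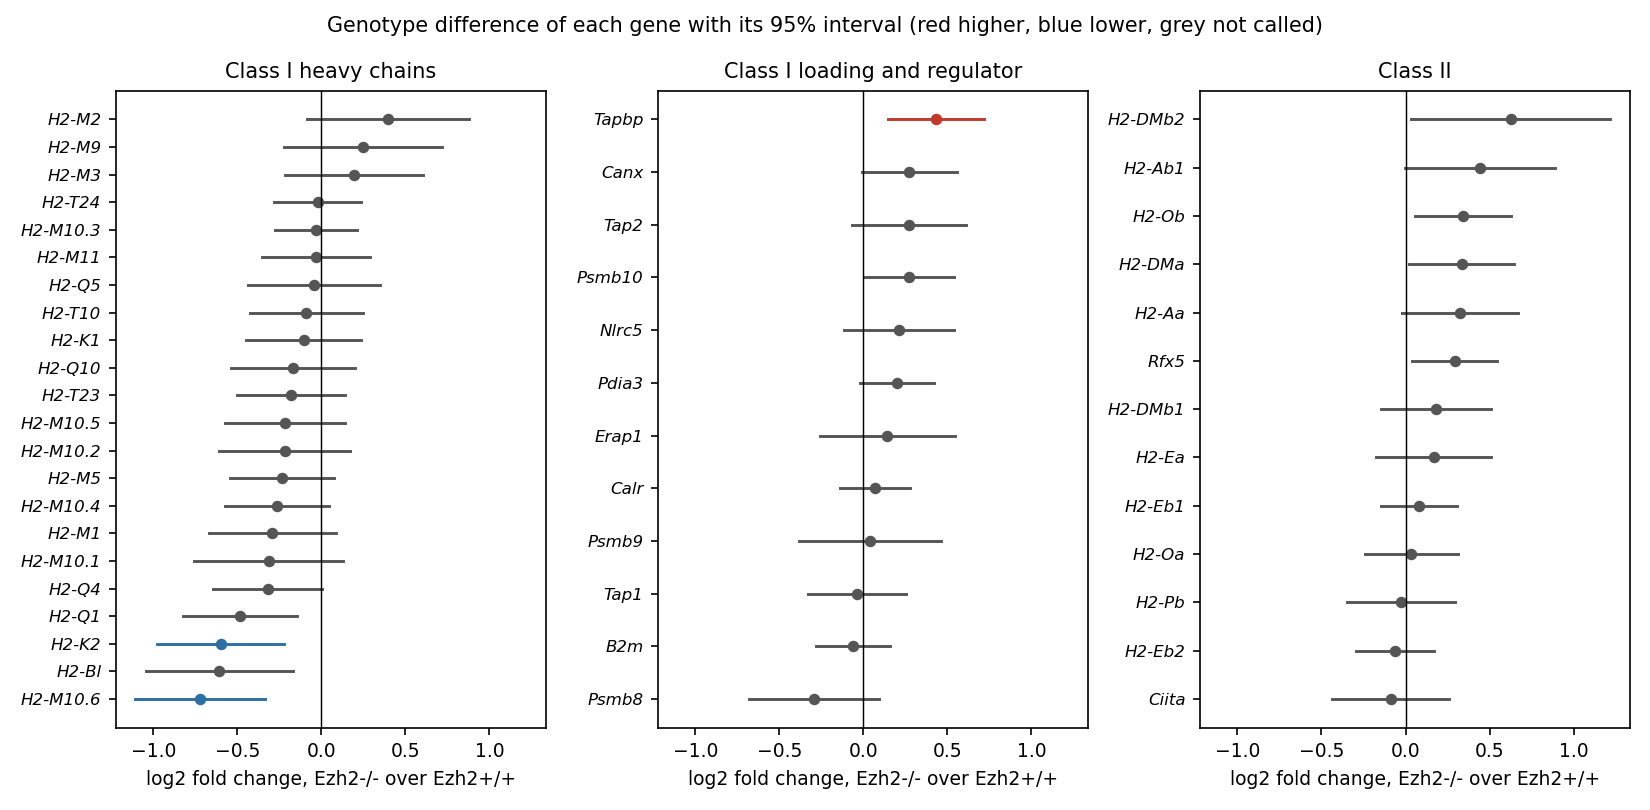
Log2 fold change of each gene in Ezh2-/- over Ezh2+/+ tumours (points) with its 95% interval from limma (lines), in 3 panels for class I heavy chains, class I loading with Nlrc5, and class II; H2-Ke6, of neither class, is not drawn. The fold change was negative for 19 of 22 heavy chain genes and positive for 10 of 13 class II genes, while the intervals of nearly all genes are long beside the differences and only the coloured genes passed an adjusted p under 0.05.

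Among the 22 class I heavy chain genes, 2 fell, 0 rose and the other 20 did not pass by limma, and 4 had an unadjusted p under 0.05, all of them lower. The fold change was negative for 19 of 22 genes with a median of -0.20, which stayed negative under every normalization tried and came closest to 0 after median centring, at -0.026. Dim genes as a class also lay lower in Ezh2-/- tumours. Of the 8872 genes in the dimmest 40%, 12.7% were called lower and 1.49% higher with a median of -0.14, while of the brighter 13308 genes 4.1% were called lower and 11.2% higher with a median of 0.15. The part of this difference between dim and bright genes in the heavy chain values was not tested.

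The classical heavy chain H2-K1, the main presenter of peptides to CD8 T cells that could be measured by a probe set of its own, did not differ beyond the spread between tumours. H2-K1 measured 9.47, 9.01, 9.15, 9.30 and 9.13 in the Ezh2-/- tumours and 9.10, 8.98, 9.77, 9.56 and 9.16 in the Ezh2+/+ tumours. All Ezh2-/- values lay inside the Ezh2+/+ range, with Ezh2+/+ tumours 3 and 4 highest. limma gave H2-K1 a log2 fold change of -0.10 (95% interval -0.45 to 0.24, adjusted p = 0.669), and the value turned to 0.068 after median centring. The probe set annotated to both H2-D1 and H2-Q2, of which H2-D1 is also a classical heavy chain, measured 5.85, 5.73, 5.73, 5.66 and 6.11 in the Ezh2-/- tumours and 5.83, 5.44, 6.01, 5.80 and 5.98 in the Ezh2+/+ tumours. Its means were the same to the second decimal in the 2 genotypes, and the log2 fold change was 0.0028 (95% interval -0.29 to 0.30, adjusted p = 0.991).

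The promoters of the classical genes and of B2m hold a pair of boxes at a fixed distance, and their sequences are shown because RFX, CREB and NF-Y, through which Nlrc5 and Ciita work, bind elements of this kind. The lines give 60 bases from the RefSeq promoter table (build GRCm38.p6) in the direction of the gene, with TGACG, the core of the X2 box, and ATTGG, the core of the Y box, in capitals. They lie at chr2:122147589-122147648 on the + strand (B2m), chr17:34000349-34000408 on the - strand (H2-K1), chr17:35262973-35263032 on the + strand (H2-D1), chr17:37270168-37270227 on the + strand (H2-M3) and chr17:35439070-35439129 on the + strand (H2-Q7).
B2m: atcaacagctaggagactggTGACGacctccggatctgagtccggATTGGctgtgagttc
H2-K1: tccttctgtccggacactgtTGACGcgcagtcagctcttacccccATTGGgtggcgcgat
H2-D1: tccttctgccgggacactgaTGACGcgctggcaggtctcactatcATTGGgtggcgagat
H2-M3: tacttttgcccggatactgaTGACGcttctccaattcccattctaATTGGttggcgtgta
H2-Q7: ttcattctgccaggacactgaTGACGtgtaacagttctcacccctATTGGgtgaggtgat
The start of TGACG stood 25 bases before that of ATTGG in the first 4 of these promoters and 24 bases before it in H2-Q7. A search for TGACG followed by ATTGG on the same strand at 24 to 26 bases, a spacing chosen after these sequences were read, found 38 of 32851 promoter windows (0.116%), which belong to 33 genes, and 6 of these genes were B2m or H2 genes. Each box alone is common: ATTGG on either strand was in 37.4% of all windows and in the windows of 31 of the 36 genes of the list that had one, and TGACG was in 20.8% of all windows and in 14 of the 36. A match describes the letters only, and the 12 genes with no entry in the table were not searched.

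The nonclassical heavy chains H2-Q4, H2-T23 and H2-M3 did not pass the test either. H2-Q4, a nonclassical chain, measured 7.26, 6.97, 7.34, 7.23 and 7.09 in the Ezh2-/- tumours and 7.54, 7.04, 7.87, 7.70 and 7.33 in the Ezh2+/+ tumours. The genotypes overlapped, with Ezh2+/+ tumours 3 and 4 highest, and the log2 fold change was -0.32 (95% interval -0.64 to 0.0071, adjusted p = 0.158). H2-T23, which encodes Qa-1, the ligand of the inhibitory receptor NKG2A on natural killer and T cells, measured 6.50, 6.47, 6.71, 6.58 and 6.83 in the Ezh2-/- tumours and 7.08, 6.30, 6.80, 6.77 and 7.05 in the Ezh2+/+ tumours. Its Ezh2-/- values lay within the Ezh2+/+ range, and the log2 fold change was -0.18 (95% interval -0.50 to 0.14, adjusted p = 0.409). H2-M3, which presents formylated peptides of bacteria and mitochondria, measured 7.02, 6.61, 6.30, 6.54 and 7.41 in the Ezh2-/- tumours and 6.73, 6.26, 6.59, 6.70 and 6.62 in the Ezh2+/+ tumours. Ezh2-/- tumours 1 and 5, the pair with high muscle markers, lay above all Ezh2+/+ tumours for H2-M3, and the log2 fold change of 0.20 (95% interval -0.21 to 0.60, adjusted p = 0.49) became -0.0958 without these 2 tumours.

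Near-identical genes of the Q and T regions share probe sets, and these could not be assigned to 1 gene. The brighter of the probe sets annotated to H2-Q7, H2-Q8 and H2-Q9 measured 7.41 to 7.82 in Ezh2-/- and 7.21 to 8.03 in Ezh2+/+ tumours, with a log2 fold change of -0.11 (95% interval -0.44 to 0.23, adjusted p = 0.663). The probe set annotated to H2-Q6 and H2-Q8 measured 7.87, 7.23, 7.79, 7.43 and 7.51 in the Ezh2-/- tumours and 7.66, 6.45, 8.01, 5.08 and 7.52 in the Ezh2+/+ tumours. Ezh2+/+ tumour 4 was far below the other tumours there, and the log2 fold change of 0.62 (95% interval -0.39 to 1.63, adjusted p = 0.372) has the widest interval of the probe sets shared by several H2 genes. The probe set annotated to both H2-T3 and H2-T18, the thymus leukaemia antigens, measured 3.62, 3.37, 3.71, 3.55 and 3.81 in the Ezh2-/- tumours and 3.86, 4.15, 4.11, 3.97 and 4.16 in the Ezh2+/+ tumours. It fell in Ezh2-/- tumours with no overlap of the genotypes, by a log2 fold change of -0.43 ± 0.11 SE at an adjusted p of 0.0249 in a limma fit over all 41345 probe sets, of which 15.9% were called. This call was lost after quantile normalization (adjusted p = 0.139), median centring (0.0832) and cyclic loess (0.150), and without any one of Ezh2-/- tumours 2 and 4 or Ezh2+/+ tumours 2, 3 and 5 (adjusted p up to 0.0597). The probe set is dim, and dim genes as a class also lay lower in Ezh2-/- tumours.

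H2-K2 and H2-M10.6 were the heavy chain genes that fell in Ezh2-/- tumours. H2-K2, a gene next to H2-K1 that RefSeq lists as a transcribed pseudogene, measured 6.50, 6.12, 6.33, 5.48 and 6.27 in the Ezh2-/- tumours and 6.91, 6.45, 6.71, 6.76 and 6.87 in the Ezh2+/+ tumours. Ezh2-/- tumour 1 reached the Ezh2+/+ range, the other 4 lay below it, and Ezh2-/- tumour 4 was lowest. limma gave H2-K2 a log2 fold change of -0.60 ± 0.17 SE at an adjusted p of 0.0393, and the call was lost without any one of Ezh2-/- tumours 2, 3 and 4 or Ezh2+/+ tumours 1, 3, 4 and 5 (adjusted p up to 0.0868) and after median centring (adjusted p = 0.0720). As H2-K2 is a near copy of functional heavy chain genes, the signal of its probes may include other H2 transcripts.

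H2-M10.6 belongs to a group of 9 class Ib genes (H2-M1, H2-M9, H2-M11 and H2-M10.1 to H2-M10.6) known for expression in pheromone-sensing neurons of the vomeronasal organ. It measured 2.98, 2.39, 2.96, 2.48 and 2.18 in the Ezh2-/- tumours and 2.999, 3.22, 3.23, 3.43 and 3.72 in the Ezh2+/+ tumours. All Ezh2-/- tumours lay below all Ezh2+/+ tumours, as was the case for 1 further gene of the 48, H2-Ke6, in the other direction, where 11.7% of all genes had genotypes with no overlap. limma gave H2-M10.6 a log2 fold change of -0.72 ± 0.18 SE at an adjusted p of 0.0208, and the call was lost without Ezh2-/- tumour 2, Ezh2-/- tumour 4 or Ezh2+/+ tumour 5 (adjusted p up to 0.0543), after quantile normalization (adjusted p = 0.0597) and after cyclic loess (adjusted p = 0.0510). Of the 9 genes, 1 fell and 8 did not pass, 8 had a negative fold change, and their median was -0.22. All of them except H2-M10.1 were among the dimmest 40% of genes. The 13 other heavy chain genes had a median of -0.17, with 1 lower and 12 not called.

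H2-Q1 and H2-Bl lay closest to the threshold without passing it. H2-Q1 measured 4.58, 5.12, 4.98, 4.98 and 4.54 in the Ezh2-/- tumours and 5.08, 5.65, 5.27, 5.07 and 5.55 in the Ezh2+/+ tumours, so that 4 Ezh2-/- tumours were below all Ezh2+/+ tumours. H2-Bl, another transcribed pseudogene in RefSeq, measured 4.31, 4.18, 4.27, 4.06 and 3.33 in the Ezh2-/- tumours and 4.65, 4.12, 4.95, 4.84 and 4.62 in the Ezh2+/+ tumours, with Ezh2-/- tumour 5 far below the others. The log2 fold changes were -0.48 (95% interval -0.82 to -0.15, adjusted p = 0.0545) for H2-Q1 and -0.61 (95% interval -1.04 to -0.17, adjusted p = 0.0599) for H2-Bl. The remaining class I heavy chain genes had log2 fold changes from -0.31 (H2-M10.1) to 0.40 (H2-M2).

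B2m, the light chain without which class I molecules do not reach the cell surface, differed little between genotypes. B2m measured 12.44, 12.33, 12.47, 12.37 and 12.27 in the Ezh2-/- tumours and 12.45, 12.19, 12.62, 12.48 and 12.46 in the Ezh2+/+ tumours. The Ezh2-/- values lay inside the Ezh2+/+ range, and the log2 fold change was -0.06 (95% interval -0.28 to 0.16, adjusted p = 0.697), which turned to 0.11 after median centring and to 0.0805 after cyclic loess.

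**Figure D2:**
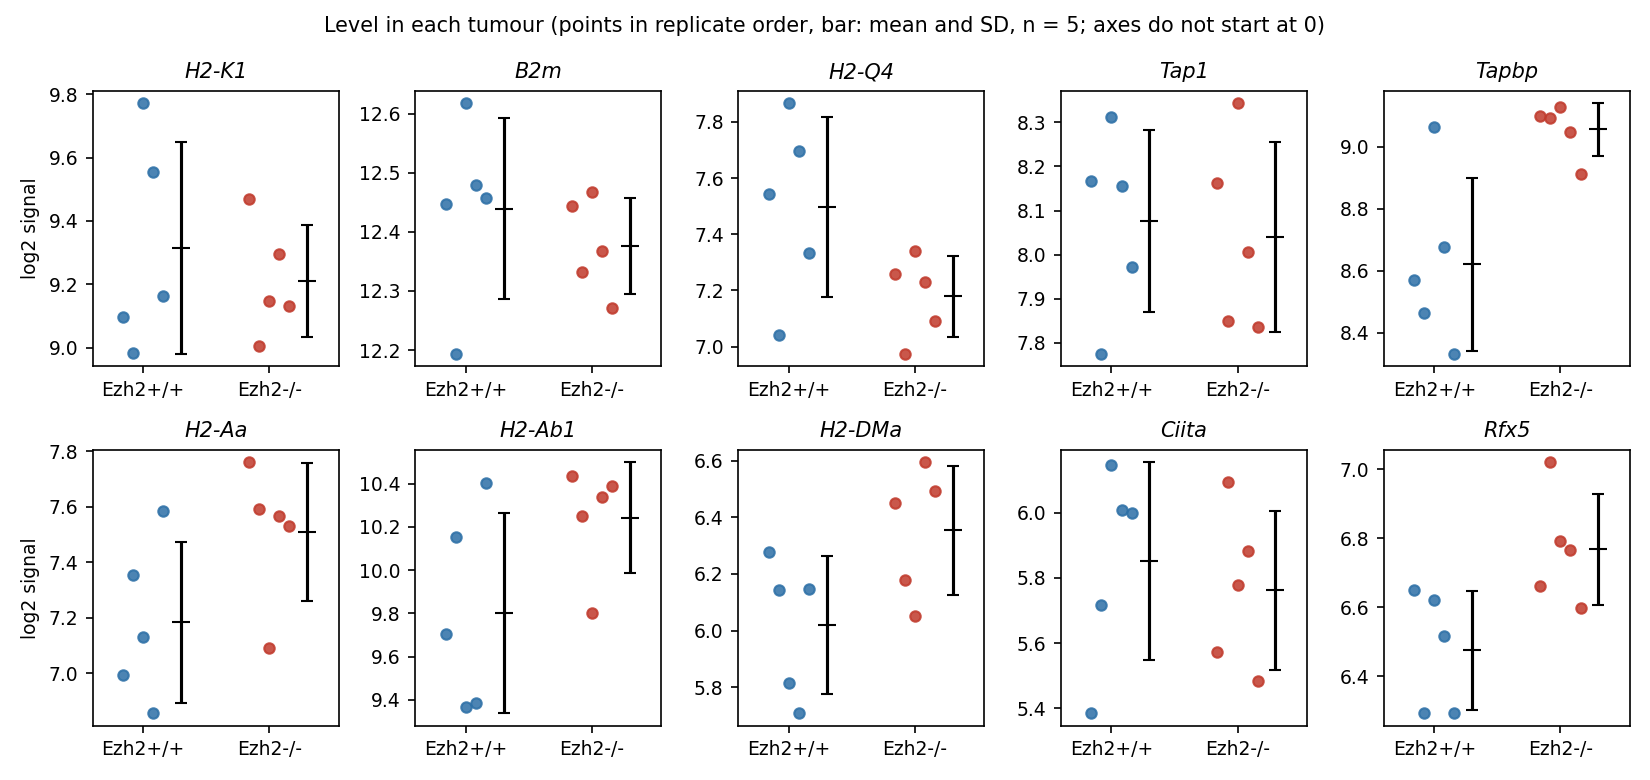
Log2 signal of 10 genes in each tumour (points, in replicate order from left to right) with mean and SD (bars, n = 5 for each genotype), with axes that do not start at 0. The genotypes share the same range for H2-K1, B2m, Tap1 and Ciita, whereas 3 of 5 Ezh2-/- tumours lie above all Ezh2+/+ tumours for Tapbp and 4 of 5 for Rfx5; Ezh2+/+ tumours 3 and 4 are low for H2-Ab1.

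Of the 12 genes of class I peptide supply and loading, 1 rose (Tapbp), 0 fell and 11 did not pass by limma, and 2 had an unadjusted p under 0.05, both higher. The median fold change was 0.17, and 9 of 12 were positive. All of these genes lay outside the dimmest 40%, where the median was 0.15, 9280 of 13308 genes were positive and 11.2% were called higher. The peptide transporter gene Tap1 measured 8.16, 7.85, 8.34, 8.005 and 7.84 in the Ezh2-/- tumours and 8.17, 7.78, 8.31, 8.16 and 7.97 in the Ezh2+/+ tumours. Its genotypes overlapped almost fully, and the log2 fold change was -0.04 (95% interval -0.33 to 0.25, adjusted p = 0.871), turning to 0.136 after median centring. Tap2, the partner subunit, measured 6.52, 6.62, 6.73, 6.75 and 6.22 in the Ezh2-/- tumours and 6.41, 6.41, 6.63, 6.19 and 5.83 in the Ezh2+/+ tumours, with 2 Ezh2-/- tumours above all Ezh2+/+ tumours and a log2 fold change of 0.27 (95% interval -0.07 to 0.61, adjusted p = 0.239).

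Tapbp, or tapasin, which bridges Tap to the empty heavy chain and selects stable peptides, was the called gene of this group. Tapbp measured 9.10, 9.09, 9.13, 9.05 and 8.91 in the Ezh2-/- tumours and 8.57, 8.46, 9.06, 8.68 and 8.33 in the Ezh2+/+ tumours. The Ezh2-/- tumours sat close together with an SD of 0.085, 3 of them above all Ezh2+/+ tumours, while Ezh2+/+ tumour 3 lay among them. limma gave Tapbp a log2 fold change of 0.43 ± 0.13 SE at an adjusted p of 0.0446. Without Ezh2+/+ tumour 3 or Ezh2-/- tumour 5 the call remained (lowest adjusted p 0.0133), and without any one of the other 8 tumours it was lost (adjusted p up to 0.102), as it was after quantile normalization (0.0725) and cyclic loess (0.102). A dimmer probe set of Tapbp measured 5.44 to 5.87 in Ezh2-/- and 5.27 to 5.69 in Ezh2+/+ tumours and was not called (log2 fold change 0.07 ± 0.12 SE), and the probe set shared with Zbtb22 had a log2 fold change of 0.15 (95% interval -0.12 to 0.42, adjusted p = 0.419).

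The immunoproteasome subunits did not move as a group. Psmb8 measured 8.76, 8.37, 8.60, 8.27 and 8.88 in the Ezh2-/- tumours and 8.90, 8.26, 9.24, 8.91 and 9.02 in the Ezh2+/+ tumours, with the Ezh2-/- tumours inside the Ezh2+/+ range and a log2 fold change of -0.29 (95% interval -0.68 to 0.10, adjusted p = 0.268). Psmb9 measured 7.60, 7.12, 7.37, 7.25 and 8.12 in the Ezh2-/- tumours and 7.61, 6.98, 7.43, 7.49 and 7.77 in the Ezh2+/+ tumours, with Ezh2-/- tumour 5 highest of all. Its log2 fold change was 0.04 (95% interval -0.38 to 0.46, adjusted p = 0.91) and changed sign to -0.0946 after quantile normalization and to -0.112 after cyclic loess. Psmb10 measured 7.65, 7.57, 7.37, 7.43 and 7.91 in the Ezh2-/- tumours and 7.46, 7.09, 7.30, 7.29 and 7.43 in the Ezh2+/+ tumours, with 3 Ezh2-/- tumours above all Ezh2+/+ tumours and a log2 fold change of 0.27 (95% interval 0.0045 to 0.54, adjusted p = 0.143). Psmb8 and Psmb9 deviated from their genotype mean to the same side in 8 of 10 tumours, a pair chosen after the values were seen.

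The endoplasmic reticulum chaperones of class I shared a pattern in which Ezh2-/- tumour 5 stood apart from the other 4. The pattern was not particular to chaperones. Ezh2-/- tumour 5 was also lowest of its genotype for Epcam, Cdh1, Rela and Rfx5, and highest for Psmb9 and H2-M3. Canx (calnexin), which holds newly made heavy chains, measured 10.42, 10.66, 10.68, 10.65 and 10.09 in the Ezh2-/- tumours and 10.14, 10.28, 10.34, 10.34 and 10.03 in the Ezh2+/+ tumours. Calr (calreticulin), which holds them once B2m is bound, measured 11.13, 11.14, 11.20, 11.20 and 10.91 in the Ezh2-/- tumours and 10.91, 11.04, 11.12, 11.08 and 11.08 in the Ezh2+/+ tumours. Pdia3, the disulfide isomerase of the loading complex, measured 10.96, 11.07, 10.91, 10.95 and 10.73 in the Ezh2-/- tumours and 10.57, 10.68, 10.70, 10.87 and 10.81 in the Ezh2+/+ tumours. In all 3 genes Ezh2-/- tumours 1 to 4 lay above every Ezh2+/+ tumour and Ezh2-/- tumour 5 did not. None of them passed the test, with log2 fold changes of 0.27 (95% interval -0.01 to 0.56, adjusted p = 0.164) for Canx, 0.07 (95% interval -0.14 to 0.28, adjusted p = 0.635) for Calr and 0.20 (95% interval -0.02 to 0.42, adjusted p = 0.187) for Pdia3. Without Ezh2-/- tumour 5 the values were 0.38 (adjusted p = 0.0332), 0.12 (adjusted p = 0.351) and 0.25 (adjusted p = 0.0942), so that Canx was then called. In that fit 20% of all genes were called, against 14.8% with every tumour kept.

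Erap1, the aminopeptidase that trims peptides, measured 7.19, 7.60, 7.54, 7.45 and 6.60 in the Ezh2-/- tumours and 6.91, 7.04, 7.51, 7.12 and 7.08 in the Ezh2+/+ tumours. Ezh2-/- tumour 5 was again the lowest and tumours 2 and 3 were the highest, and the log2 fold change was 0.14 (95% interval -0.26 to 0.55, adjusted p = 0.615), with the opposite sign after cyclic loess (-0.0116). Nlrc5, the class I activator, measured 4.91, 4.88, 5.30, 5.46 and 4.79 in the Ezh2-/- tumours and 4.69, 4.74, 5.10, 5.07 and 4.68 in the Ezh2+/+ tumours. Ezh2-/- tumours 3 and 4 lay above all Ezh2+/+ tumours, and the log2 fold change was 0.21 (95% interval -0.12 to 0.54, adjusted p = 0.348). In 8 of 10 tumours Nlrc5 and H2-K1 deviated from their genotype means to the same side, again a pair chosen after the values were seen.

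None of the 13 class II genes passed the test by limma, although 10 of 13 had a positive fold change, with a median of 0.18. At an unadjusted p under 0.05 there were 4, all higher (H2-Ob, Rfx5, H2-DMa and H2-DMb2), and the methods' own test called 0 after adjustment and 2 before it, where it called 31.1% of all genes before adjustment. The median stayed positive under every normalization and tumour left out, between 0.10 and 0.36. Quantile normalization and cyclic loess each called 1 gene, H2-Ob, and median centring called 6: H2-Aa, H2-Ab1, H2-DMa, H2-DMb2, H2-Ob and Rfx5.

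The chains of the class II molecules themselves were similar or somewhat above in Ezh2-/- tumours, within the spread. The promoter of H2-Aa, which encodes the A alpha chain, holds the same pair of boxes as those of class I, at chr17:34287857-34287916 on the - strand. H2-Eb1 (chr17:34305763-34305822 on the + strand) and H2-Ob (chr17:34238803-34238862 on the + strand) hold ATTGG with no TGACG before it, and are shown for comparison, with the same letters in capitals and the same source.
H2-Aa: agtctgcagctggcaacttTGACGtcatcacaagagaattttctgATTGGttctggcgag
H2-Eb1: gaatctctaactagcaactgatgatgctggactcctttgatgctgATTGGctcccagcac
H2-Ob: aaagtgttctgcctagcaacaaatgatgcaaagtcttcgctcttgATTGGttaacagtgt
In H2-Aa the starts of the boxes were 26 bases apart. All 9 class II genes with a promoter window held ATTGG, against 37.4% of all windows, and 1 of 9, H2-Aa, held TGACG. Both H2-Eb1 and H2-Ob hold tgatg, which differs from TGACG by a letter, before ATTGG. Spellings of the X2 box other than TGACG were not searched, so a promoter without TGACG may still hold the box.

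H2-Ab1, the A beta chain, measured 10.44, 10.25, 9.80, 10.34 and 10.39 in the Ezh2-/- tumours and 9.71, 10.15, 9.36, 9.38 and 10.40 in the Ezh2+/+ tumours. Ezh2+/+ tumours 3 and 4 were the lowest, Ezh2+/+ tumour 5 lay among the Ezh2-/- tumours, and Ezh2-/- tumour 3 was the lowest of its genotype. H2-Aa, its partner, measured 7.76, 7.59, 7.09, 7.57 and 7.53 in the Ezh2-/- tumours and 6.99, 7.35, 7.13, 6.86 and 7.58 in the Ezh2+/+ tumours. H2-Aa and H2-Ab1 deviated from their genotype means to the same side in 10 of 10 tumours. The log2 fold changes were 0.44 (95% interval -0.0047 to 0.89, adjusted p = 0.154) for H2-Ab1 and 0.33 (95% interval -0.02 to 0.67, adjusted p = 0.171) for H2-Aa. H2-Eb1, the E beta chain, measured 5.78, 5.53, 5.33, 5.52 and 5.51 in the Ezh2-/- tumours and 5.44, 5.55, 5.53, 5.37 and 5.38 in the Ezh2+/+ tumours, with a log2 fold change of 0.08 (95% interval -0.14 to 0.31, adjusted p = 0.608). H2-Ea, whose chain the q haplotype does not make, had a log2 fold change of 0.17 (95% interval -0.18 to 0.51, adjusted p = 0.483), and Ezh2-/- tumour 5 was highest at 5.05.

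The probe set annotated to both Cd74, the invariant chain that accompanies class II molecules to the endosome, and Mir5107 measured 11.29, 11.26, 10.91, 11.29 and 10.94 in the Ezh2-/- tumours and 10.48, 10.89, 10.61, 10.08 and 10.83 in the Ezh2+/+ tumours. It rose in Ezh2-/- tumours, and the genotypes did not overlap, although the lowest Ezh2-/- and the highest Ezh2+/+ tumour lay within 0.02 of each other. In the limma fit over all probe sets its log2 fold change was 0.56 ± 0.16 SE at an adjusted p of 0.0379. The call was kept under quantile normalization, median centring and cyclic loess, and it was lost without any one of Ezh2-/- tumours 1, 2 and 4 or Ezh2+/+ tumours 1, 3 and 4 (adjusted p up to 0.0860) without Ezh2-/- tumours 1 and 5 together (adjusted p = 0.0730) and by the methods' own test (adjusted p = 0.0674).

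Genes that edit the class II peptide gave positive values that were partly set by 1 tumour. H2-DMa, a chain of the H2-DM exchanger, measured 6.45, 6.18, 6.05, 6.59 and 6.49 in the Ezh2-/- tumours and 6.28, 6.14, 5.81, 5.71 and 6.15 in the Ezh2+/+ tumours. Of its Ezh2-/- values 3 lay above every Ezh2+/+ value, and the log2 fold change was 0.34 (95% interval 0.02 to 0.65, adjusted p = 0.125). Its partner H2-DMb1 measured 3.71, 3.73, 3.56, 3.50 and 3.68 in the Ezh2-/- tumours and 3.85, 3.22, 2.996, 3.62 and 3.57 in the Ezh2+/+ tumours, with a log2 fold change of 0.18 (95% interval -0.14 to 0.51, adjusted p = 0.414). H2-DMb2, the second beta chain gene, measured 3.51, 3.18, 4.07, 3.69 and 4.89 in the Ezh2-/- tumours and 3.37, 3.31, 2.83, 3.04 and 3.67 in the Ezh2+/+ tumours, and its log2 fold change of 0.63 (95% interval 0.03 to 1.22, adjusted p = 0.131) became 0.37 without Ezh2-/- tumour 5. H2-Ob, the beta chain of the H2-O modulator, measured 4.72, 4.54, 4.55, 4.60 and 5.18 in the Ezh2-/- tumours and 4.32, 4.39, 4.55, 4.26 and 4.37 in the Ezh2+/+ tumours, and its log2 fold change of 0.34 (95% interval 0.06 to 0.63, adjusted p = 0.0939) became 0.23 without that tumour. H2-Oa, the alpha chain, had a log2 fold change of 0.04 (95% interval -0.24 to 0.31, adjusted p = 0.867). B cells are a main source of H2-O, and the mean of 9 B cell markers was 5.12 in Ezh2-/- tumour 5 and 3.93 to 4.26 in the other 9 tumours; the part of B cells in these values was not tested.

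Ciita, the switch of class II genes, measured 5.57, 6.09, 5.78, 5.88 and 5.48 in the Ezh2-/- tumours and 5.38, 5.72, 6.15, 6.01 and 6.0004 in the Ezh2+/+ tumours. The Ezh2-/- values lay inside the Ezh2+/+ range, and the log2 fold change was -0.09 (95% interval -0.44 to 0.26, adjusted p = 0.731), turning to 0.0842 after median centring. Ciita and H2-Ab1 deviated to the same side of their genotype means in 4 of 10 tumours. Rfx5, the subunit of the RFX complex that contacts the X box with Ciita or Nlrc5, measured 6.66, 7.02, 6.79, 6.77 and 6.60 in the Ezh2-/- tumours and 6.65, 6.29, 6.62, 6.52 and 6.29 in the Ezh2+/+ tumours. In Ezh2-/- tumours 1 to 4 it lay above all Ezh2+/+ tumours, with a log2 fold change of 0.29 (95% interval 0.04 to 0.55, adjusted p = 0.104). A probe set annotated to both Rfx5 and B230398E01Rik had a log2 fold change of the opposite sign, -0.26 (95% interval -0.53 to 0.0099, adjusted p = 0.167).

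H2-Ke6 showed the firmest difference of the 48 genes, and it presents no antigen. It lies in the H2 locus and encodes a hydroxysteroid dehydrogenase, also named Hsd17b8, of lipid metabolism. H2-Ke6 measured 6.86, 6.67, 6.78, 6.75 and 6.94 in the Ezh2-/- tumours and 6.41, 6.24, 6.43, 6.10 and 6.11 in the Ezh2+/+ tumours. Each Ezh2-/- tumour exceeded every Ezh2+/+ tumour, and limma gave H2-Ke6 a log2 fold change of 0.54 ± 0.11 SE at an adjusted p of 0.00752. It was the 1 gene of the 48 that was called in each of the 10 fits without 1 tumour (adjusted p 0.00843 to 0.0209) and under every other setting tried.

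**Figure D3:**
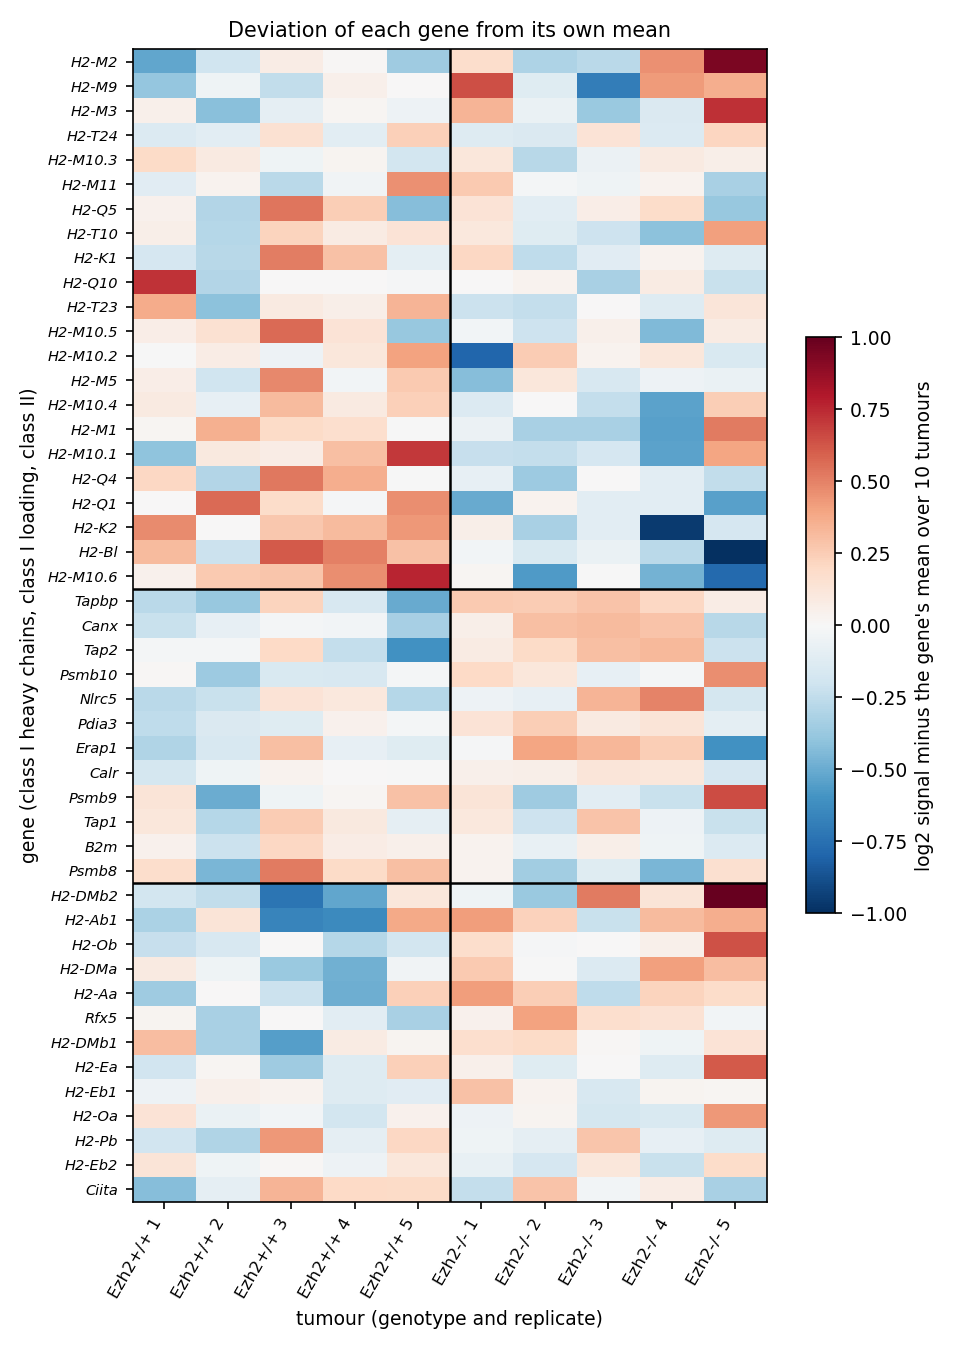
Log2 signal of each gene less its own mean over the 10 tumours (colour, limited to -1 and 1), with genes in rows from highest to lowest fold change within class I heavy chains, class I loading and class II, and tumours in columns by genotype and replicate. Ezh2+/+ tumours 3 and 4 are red for class I genes such as H2-K1, H2-Q4 and H2-Bl and blue for H2-Ab1, H2-DMa and H2-Aa, and Ezh2-/- tumour 5 stands apart at H2-DMb2, H2-Ob, H2-Ea and H2-Bl.

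Within a genotype, several core class I genes and H2-Ab1 deviated to opposite sides in most tumours. B2m and Tap1 deviated from their genotype means to the same side in 9 of 10 tumours, Tap1 and H2-Q4 in 9, B2m and H2-Q4 in 8, and H2-K1 and H2-Q4 in 8, while B2m and H2-K1 did so in 6, as did Psmb9 and Tap1. H2-Ab1 deviated to the side opposite to Tap1 in 9 of 10 tumours, to B2m and to H2-Q4 in 8, and to H2-K1 in 6. These pairs were chosen after the values were seen and are a description, in which the 2 genes of a pair share the array and its scaling. Ezh2+/+ tumours 3 and 4, which lead the class I genes, are the lowest for H2-Ab1.

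Each gene was then set against its own mean over the 10 tumours. The mean deviation of the 34 class I genes lay between -0.085 and 0.014 in Ezh2-/- and between -0.13 and 0.18 in Ezh2+/+ tumours. For the 13 class II genes it lay between 0.0092 and 0.29 in Ezh2-/- and between -0.22 and 0.069 in Ezh2+/+ tumours. The class II mean less the class I mean was 0.092, 0.13, 0.042, 0.13 and 0.30 in the Ezh2-/- tumours and -0.094, 0.021, -0.34, -0.30 and 0.013 in the Ezh2+/+ tumours. All Ezh2-/- tumours were above all Ezh2+/+ tumours in this difference, which no centring of an array can alter, and the same held after quantile normalization and cyclic loess. When only the 29 genes outside the dimmest 40% were used, the values were 0.18, 0.24, -0.12, 0.26 and 0.10 against -0.19, 0.15, -0.32, -0.33 and 0.017, and the genotypes overlapped. The difference between the classes was described and not tested.

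**Figure D4:**
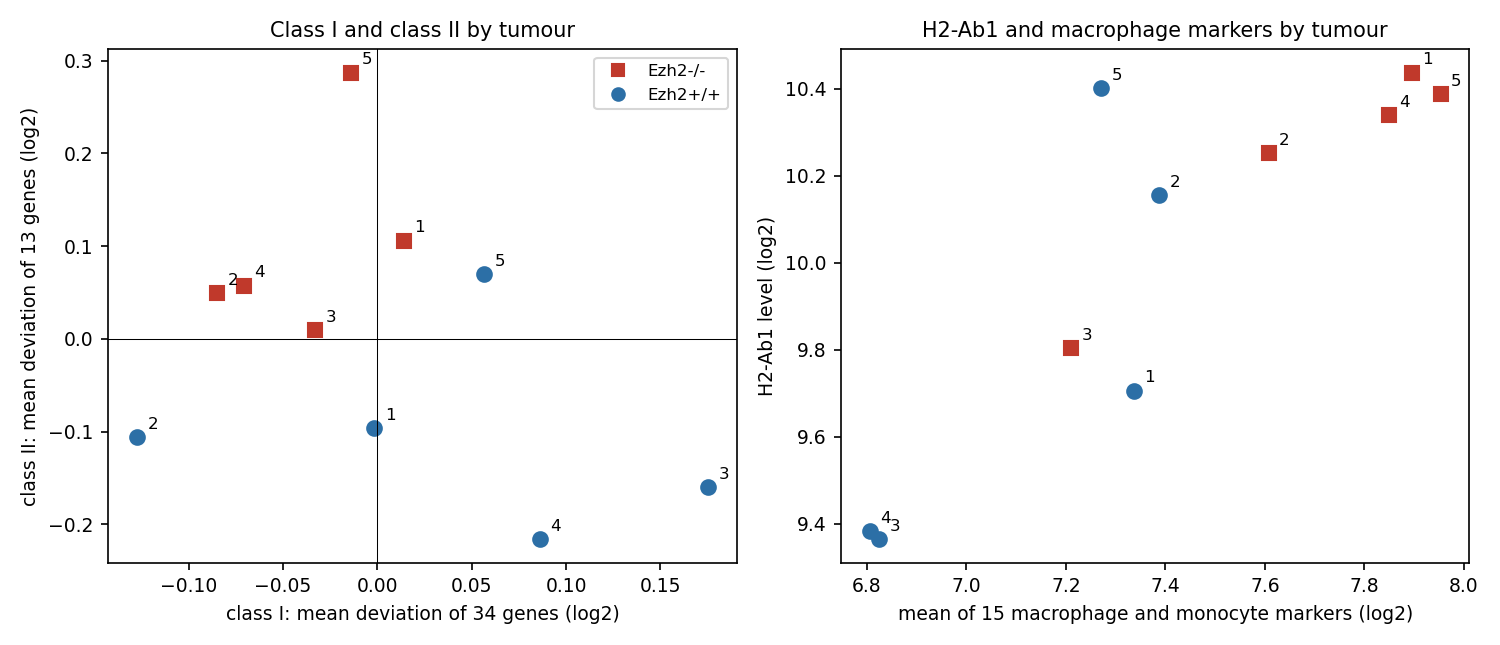
Left, mean deviation of the 34 class I genes (x axis, log2) and the 13 class II genes (y axis, log2) in each tumour, numbered by replicate, red squares for Ezh2-/- and blue circles for Ezh2+/+; right, H2-Ab1 level (y axis, log2) against the mean of 15 macrophage and monocyte markers (x axis, log2). On the left, Ezh2+/+ tumours 3 and 4 lie farthest to the lower right, and on the right the same 2 tumours are lowest on both axes, while Ezh2-/- tumours 1, 4 and 5 are highest on the x axis.

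Markers of macrophages and monocytes and of all leukocytes had mostly positive fold changes. Of 15 macrophage and monocyte markers, 4 rose and 0 fell in Ezh2-/- tumours, with a median log2 fold change of 0.56, led by Csf1r, the receptor for macrophage growth factors (log2 fold change 0.92 ± 0.20 SE, adjusted p = 0.0113), and the surface marker Adgre1 (log2 fold change 0.95 ± 0.23 SE, adjusted p = 0.0198). Their mean level was 7.90, 7.61, 7.21, 7.85 and 7.95 in the Ezh2-/- tumours and 7.34, 7.39, 6.82, 6.81 and 7.27 in the Ezh2+/+ tumours. Ezh2+/+ tumours 3 and 4 were lowest and Ezh2-/- tumour 3 was lowest of its genotype, as for H2-Ab1. Ezh2+/+ tumour 5 broke this order. It had the highest H2-Ab1 of its genotype, 10.40, at a marker mean of 7.27, below those of Ezh2+/+ tumours 1 and 2. Over all genes, 7.29% were called higher. Of 6 markers of all leukocytes 3 rose and 0 fell, among them Laptm5 (log2 fold change 0.89 ± 0.18 SE, adjusted p = 0.00863), with a mean level of 6.003 to 6.86 in Ezh2-/- and 5.55 to 6.27 in Ezh2+/+ tumours. In whole tumours, more cells of a type and more RNA per cell cannot be told apart, and the part of these cells in the class II and Cd74 values was not tested.

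Other antigen presenting cells were less clear. Beside the counts of called markers that follow, 7.29% of all genes were called higher and 7.56% lower. Of 11 dendritic cell markers 0 rose and 1 fell, Siglech of plasmacytoid dendritic cells (log2 fold change -0.77 ± 0.17 SE, adjusted p = 0.0119), with a mean level of 5.27 to 5.74 in Ezh2-/- and 5.31 to 5.62 in Ezh2+/+ tumours. Siglech itself was dim, at 3.96 to 4.61 and 4.43 to 5.27, and dim genes as a class also lay lower in Ezh2-/- tumours. Of 9 B cell markers 1 rose, Cd22 (log2 fold change 0.47 ± 0.14 SE, adjusted p = 0.0429), and 0 fell. Among cells that read MHC molecules, 3 of 8 T cell markers rose and 0 fell: Cd4, the coreceptor for class II (log2 fold change 1.5 ± 0.26 SE, adjusted p = 0.00415), and the receptor chains Cd3e (log2 fold change 1.10 ± 0.28 SE, adjusted p = 0.0246) and Cd3g (log2 fold change 1.25 ± 0.34 SE, adjusted p = 0.0288). Cd8a, the coreceptor for class I, did not pass, with a log2 fold change of 0.26 (95% interval -0.18 to 0.71, adjusted p = 0.393). The mean level of the T cell markers was 5.10 to 6.54 in Ezh2-/- and 4.77 to 5.04 in Ezh2+/+ tumours, with no overlap and Ezh2-/- tumour 5 highest. Of 8 natural killer cell markers, Gzmb rose and Prf1 and Gzma fell, and the median was -0.01. Gzma was dim, as Siglech was, so the same limit holds for its fall. Of these 15 called markers, 6 were called in each of the 10 fits without 1 tumour. The call was lost after quantile normalization for Gzma (adjusted p = 0.177), Itgb2, Cd14 and C1qc, and after cyclic loess for these 4 and Cd3e (0.0613), Cd3g (0.0513) and Adgre1 (0.0541). Gzma also lost its call after median centring (adjusted p = 0.159).

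The factors that control MHC genes leaned to positive values. All 12 measured regulators had a positive fold change, with a median of 0.23, and 2 rose: Irf8, a factor of myeloid and B cells (log2 fold change 0.39 ± 0.10 SE, adjusted p = 0.026), and Rela, a subunit of NF-kappaB (log2 fold change 0.53 ± 0.15 SE, adjusted p = 0.0353). Rela measured 9.32, 9.66, 9.35, 9.49 and 8.95 in the Ezh2-/- tumours and 8.91, 8.97, 8.91, 8.93 and 8.40 in the Ezh2+/+ tumours, with Ezh2-/- tumour 5 inside the Ezh2+/+ range. The partners of Rfx5 had log2 fold changes of 0.17 (95% interval -0.15 to 0.49, adjusted p = 0.445) for Rfxap and 0.0094 (95% interval -0.34 to 0.36, adjusted p = 0.976) for Rfxank, and the NF-Y subunits Nfya, Nfyb and Nfyc had 0.09, 0.17 and 0.21. None of these 5 passed the test. Brighter genes as a class had a median of 0.15, as given above, with 9280 of 13308 positive, and 53.3% of all genes had a positive fold change. Beside these counts and those of the gene groups below, 7.29% of all genes were called higher and 7.56% lower.

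Interferon gamma is the main inducer of MHC genes. Its gene, Ifng, had a log2 fold change of -0.04 (95% interval -0.24 to 0.16, adjusted p = 0.788), and the mean level of 22 interferon-induced genes such as Gbp3 and Cxcl9 was 5.62 to 6.16 in Ezh2-/- and 5.59 to 6.05 in Ezh2+/+ tumours. Of these 22 genes, 0 rose and 1 fell, Ifit3 (log2 fold change -0.63 ± 0.19 SE, adjusted p = 0.0417), with a median of 0.07. Of 10 genes of interferon gamma signalling, 1 rose, the kinase Jak1 (log2 fold change 0.56 ± 0.17 SE, adjusted p = 0.0412), and 9 did not pass, while 9 of the 10 had a positive fold change with a median of 0.22. The mean level of these 10 genes was 7.02 to 7.09 in Ezh2-/- and 6.78 to 6.95 in Ezh2+/+ tumours, with no overlap. Brighter genes as a class also lay higher in Ezh2-/- tumours (median 0.15, 9280 of 13308 positive), and their part in this mean was not tested. Irf1, which the pathway induces and which acts on class I promoters, had a log2 fold change of 0.25 (95% interval 0.04 to 0.46, adjusted p = 0.0966).

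Few single processing genes outside the named list passed the test. Of 16 further genes of class I supply and loading 1 rose, the chaperone Hsp90b1 (log2 fold change 0.39 ± 0.12 SE, adjusted p = 0.0448), whose lowest Ezh2-/- value was again that of tumour 5 at 10.77. Of the 16, 14 had a positive fold change with a median of 0.17, and their mean level was 7.90 to 7.997 in Ezh2-/- and 7.73 to 7.87 in Ezh2+/+ tumours, with no overlap. This median is near the 0.15 of brighter genes as a class, of which 9280 of 13308 were positive. Of 13 endosomal genes of class II processing, 0 passed by limma, with 3 at an unadjusted p under 0.05 and a median of 0.07. Among 8 MHC-like genes outside the locus, Ulbp1, a stress ligand of the receptor NKG2D, rose (log2 fold change 0.58 ± 0.16 SE, adjusted p = 0.0349). The iron regulator Hfe also rose (log2 fold change 0.48 ± 0.15 SE, adjusted p = 0.0475). In the same group Azgp1, a secreted lipid-binding relative of class I chains, fell (log2 fold change -0.66 ± 0.16 SE, adjusted p = 0.0195). Azgp1 was dim, and dim genes as a class also lay lower in Ezh2-/- tumours, as given above.

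Costimulatory and checkpoint ligands, which set the T cell response to an MHC molecule, held the largest change of these gene groups. Vtcn1, the inhibitory ligand B7-H4, measured 8.45, 9.002, 8.67, 8.57 and 8.48 in the Ezh2-/- tumours and 7.47, 7.62, 6.47, 7.22 and 6.84 in the Ezh2+/+ tumours. No Ezh2-/- tumour was as low as any Ezh2+/+ tumour, and limma gave Vtcn1 a log2 fold change of 1.51 ± 0.20 SE at an adjusted p of 0.000831. Tnfsf4, the ligand of the receptor OX40, fell (log2 fold change -0.66 ± 0.19 SE, adjusted p = 0.0392). It was dim, at 2.77 to 3.98 in Ezh2-/- and 4.001 to 4.38 in Ezh2+/+ tumours, and dim genes as a class also lay lower, as given above. The other 9 did not pass, with log2 fold changes of -0.12 (95% interval -0.54 to 0.29, adjusted p = 0.684) for Cd274 (PD-L1), 0.64 (95% interval 0.15 to 1.13, adjusted p = 0.0739) for Cd80, 0.15 (95% interval -0.31 to 0.60, adjusted p = 0.654) for Cd86 and 0.12 (95% interval -0.25 to 0.49, adjusted p = 0.655) for Cd40. Of the 10 called genes in the groups of regulators, signalling, processing, MHC-like genes and ligands, Vtcn1 was the 1 that was called in each of the 10 fits without 1 tumour. The call was lost after quantile normalization for 5 of them, Hfe (adjusted p = 0.137), Tnfsf4 (0.150), Jak1 (0.0612), Ifit3 (0.0632) and Azgp1 (0.0609). After cyclic loess it was lost for Hfe (adjusted p = 0.172), Tnfsf4 (0.159) and Jak1 (0.0829), and after median centring for Ifit3 (adjusted p = 0.0954) and Tnfsf4 (0.0850).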

How the data were processed

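Total RNA of 10 tumours was hybridised to 1 array each. The authors made gene-level normalised values in Affymetrix Expression Console and compared genotypes by ANOVA in Transcriptome Analysis Console. The deposited values, which run from 0.595 to 13.2, were taken as log2, since log base, algorithm and array build are not given in the sources used here. Arrays correlated at 0.965 to 0.982 within and 0.930 to 0.962 between genotypes, and none were identical. Of 41345 probe sets, 23521 carried 1 symbol (23328 of them matched a RefSeq gene by Entrez ID), 1820 carried several and 16004 were not listed in the annotation. Where a gene had more than 1 probe set (1082 of 22180 genes), the one with the highest mean entered.

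Genotypes were compared with limma 3.58.1 (R 4.3.3, default prior), two-sided, with Benjamini-Hochberg adjustment over all genes (over all probe sets for those with several symbols) and a threshold of 0.05. Intervals are 95% intervals of that fit. The equal-variance test per gene, named here the methods' own test, was an alternative, as were an intensity trend with robust prior, array weights, quantile normalisation, median centring, cyclic loess, dropping the dimmest 40% of genes, averaging the probe sets of a gene, all probe sets, a replicate block and leaving out each tumour. Scripts were tested on simulated data. Values of every tumour are given for called genes and for a list of core presentation genes, and from each other list up to 4 called genes per direction are named. H2-Q4, H2-T23, H2-Q1, H2-Bl, H2-DMb2, H2-Ob and the uncalled genes of the other lists were named after their values were seen. The genes and lists were chosen with earlier results of these data known. Promoter windows of 250 bases before to 50 after the start came from RefSeq (GRCm38.p6), in which 36 of the 48 genes were found. Plots used matplotlib 3.10.9 (Python 3.11.15).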

Additional observations from a re-analysis of the deposited data

Results flagged for a closer look

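In 4 of 116 groups of 5 tumours 1 value stood far from the other 4, by Dixon's test, where chance gives about 5% of groups. In Ezh2-/- tumour 5, Calr was lowest at 10.91 (nearest other 11.13), H2-Bl was lowest at 3.33 (nearest other 4.06) and H2-Ea was highest at 5.05 (nearest other 4.49). In Ezh2-/- tumour 3, H2-Pb, which RefSeq lists as a pseudogene, was highest at 3.80 (nearest other 3.47). The cause was not tested. Without Ezh2-/- tumour 5 the log2 fold change was 0.12 for Calr and 0.034 for H2-Ea.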

How the results depend on the processing

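H2-Ke6 kept its call under every alternative. Of all genes, 1617 were called higher and 1676 lower. Higher calls numbered 862 by the methods' own test with adjustment, 3572 by it without adjustment, 2434 with array weights, 5219 after median centring and 2552 with the replicate block, and 748 to 2519 without 1 tumour. Lower calls numbered 3321 by the methods' test without adjustment, 882 after quantile normalisation, 927 after median centring, 996 after cyclic loess, 535 without the dimmest genes, 4415 over all probe sets and 983 to 1920 without 1 tumour. Lower class I heavy chain genes, 2 in the deposited values, numbered 0 and 4 by the methods' test with and without adjustment, 1 after quantile normalisation, median centring or cyclic loess, 1 without the dimmest genes (H2-M10.6 was not tested there), 4 with the replicate block (H2-Bl and H2-Q1 were added) and 0 to 4 without 1 tumour. Higher class I loading genes, 1 in the deposited values, numbered 0 and 3 by the methods' test with and without adjustment, 0 after quantile normalisation, cyclic loess or averaging a gene's probe sets, 4 after median centring and 0 to 2 without 1 tumour. Higher class II genes, 0 in the deposited values, numbered 2 by the methods' test without adjustment, 1 after quantile normalisation or cyclic loess, 6 after median centring and 0 to 0 without 1 tumour.

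Signs reversed only for genes that were not called. After median centring the log2 fold change was 0.068 for H2-K1, 0.11 for B2m, 0.136 for Tap1 and 0.0842 for Ciita. After cyclic loess it was 0.0805 for B2m, -0.112 for Psmb9 and -0.0116 for Erap1. Array weights gave 0.000593 for Tap1 and -0.0214 for Psmb9, and quantile normalisation gave -0.0946 for Psmb9. Leaving out Ezh2-/- tumours 1 and 5 together, an alternative chosen after seeing the data for their muscle markers, gave -0.0958 for H2-M3, -0.209 for Psmb9 and 0.0675 for Ciita. Without 1 tumour, values ran from -0.19 to 0.0094 for H2-K1, from -0.11 to 0.022 for Tap1 and from -0.12 to 0.13 for Psmb9, each of which includes a reversal. Over the genes with values for every tumour and all alternatives, 467 results kept direction and call, 28 lost the call, 12 gained it and 19 reversed; the cause was not tested.

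Whether replicate numbers pair the tumours is not settled by the labels or by these values. Deviations of same-numbered tumours correlated at 0.027, 0.11, 0.18, -0.042 and 0.34, and 4 of 10 tumours correlated best with their own number. With the replicate block 6 of the 48 genes and 20% of all genes were called, against 4 and 14.8% without it. The block ended the call of the Cd74 and Mir5107 probe set (adjusted p = 0.0638) and of Gzma (0.0519). By the methods' own test with adjustment, 2 of the 10 called genes in the other gene groups and 5 of the 15 called cell markers were still called; leaving out Ezh2-/- tumours 1 and 5 together left 5 and 7. The spread between 5 tumours limits what can be seen, since the narrowest standard error was 0.096. Probe sets shared by several genes, alleles that differ from the array's design and a mixture of cells limit what a gene's value means.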
